A study of Homo sapiens with 24 samples.

Results

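The genes for collagen chains, laminin chains and integrin subunits were examined across 24 libraries of 3′ RNA-seq, from the bladder cancer cell lines RT112 (luminal papillary) and SCaBER (basal/squamous). Members were chosen by symbol: every gene of the count table named as a collagen alpha chain except COL17A1, as a laminin alpha, beta or gamma chain, or as a numbered integrin alpha or beta chain, together with ITGAV. This gave 75 of 58721 genes, of which 43 were collagens, 12 laminins and 20 integrins. COL17A1, a transmembrane collagen of hemidesmosomes, was read with the partner genes. Integrin subunits named by another letter, among them the alpha partners of ITGB2, were outside the rule. Each line was treated in 6 ways, with siControl, with siZBED2-1 or siZBED2-2 (ZBED2 siRNAs known by number), with siFOXA1 (a FOXA1 siRNA), and with siFOXA1 plus one or the other ZBED2 siRNA (double knock-down). Each of these 12 groups held 2 libraries. All cells had been transfected with lipid reagent, the knock-downs were short, and RT112 grew in RPMI and SCaBER in DMEM, so line and medium cannot be told apart. FOXA1, a forkhead protein, drives luminal genes in the urothelium, and the zinc finger protein ZBED2 is expressed in basal epithelial cells.

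Epithelial cells rest on a basement membrane built from a laminin polymer and a network of COL4 chains. A laminin is a trimer of an alpha, a beta and a gamma chain. The trimer that holds LAMA3 and LAMB3 anchors basal cells of stratified epithelia, where it is bound by the integrin pair ITGA6 and ITGB4 in hemidesmosomes and tied to the matrix below by anchoring fibrils of COL7A1. Integrins work as pairs of an alpha and a beta chain. ITGB1 pairs with ITGA1 and ITGA2 (collagen receptors), ITGA3 (a laminin receptor) and ITGA5 (the fibronectin receptor), among others. ITGAV pairs with ITGB5, ITGB6 and ITGB8, among others. Fibrillar collagens such as COL1A1 are made mainly by stromal cells.

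Total counts ran from 4425404 to 6119210 per library, and values are given as CPM (counts scaled to library size, adjusted by TMM factors), with the 2 libraries of a group in the order replicate 1, replicate 2. Where a gene had no count, counting error alone allows a level of up to 0.474 to 0.678 CPM in a library, the worth of 3 counts. A gene was called when its adjusted p was under 0.05 in edgeR's quasi-likelihood test over all genes. The p-values rest on the spread between the 2 libraries of a group, estimated over all groups of a fit. FOXA1 stood at 41.9 and 41.4 CPM in RT112 under siControl and at 6.86 and 9.56 under siFOXA1 (log2 fold change −2.36, SE 0.38, adjusted p 5.68e-05). In SCaBER it held 20 and 28 counts against 4 and 6, and this difference did not pass (adjusted p 0.272). ZBED2 was lower with siZBED2-1 in both lines (log2 fold change −3.97 in RT112 and −1.96 in SCaBER, both called), while the change with siZBED2-2 was not called in either, and the library labelled SCaBER siZBED2-2 replicate 2 held 15.8 CPM of ZBED2 beside 18.9 in each siControl library. Under siFOXA1 in RT112 ZBED2 was lower as well, at 5.45 and 1.52 CPM against 22 and 16.9 (log2 fold change −2.48, SE 0.81, adjusted p 0.0325). The summed level of 8 luminal markers was 671 to 1338 CPM in RT112 and 73.7 to 149 in SCaBER, and that of 6 basal and squamous markers was 209 to 473 and 1965 to 3590. Each sum was thus higher in the line of its label, but single markers did not all follow. Of the luminal markers, KRT20 and UPK3A reached at most 1.06 and 3.24 CPM in RT112. Of the basal and squamous markers, TP63 overlapped between the lines (3.65 to 34.9 CPM in RT112, 10.8 to 24.3 in SCaBER). In bulk samples, fewer cells of a type and less RNA per cell cannot be told apart. Transcripts of the mitochondrial genome took 8.22 to 22.7% of counts in RT112 and 9.29 to 12.9% in SCaBER. In RT112 this share was 17.8 and 12.2% under siControl and 21.4 and 22.7% under siFOXA1, and its part in the RT112 results was not tested.

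Of the 75 members, 37 passed the filter on low counts in RT112 (17 collagens, 8 laminins, 12 integrins) and 37 in SCaBER (16, 9 and 12). Of these, 29 passed in both lines, 8 in RT112 only and 8 in SCaBER only. The 38 members that did not pass in a line had at most 46 counts over the 12 libraries in RT112 and 54 in SCaBER, and 13 members had no count in any library. Those near 0 included partner chains of measured members. COL1A1 was measured in both lines, whereas COL1A2, the other chain of the usual type I trimer, summed to 0 counts in RT112 and 5 in SCaBER. COL6A1 was measured in both lines, while COL6A3 summed to 2 and 0 counts. Of the type IV chains of specialised membranes, COL4A4 was measured in RT112 and COL4A3, its neighbour 135 bases away, summed to 33 counts there. LAMC3, LAMB4, COL3A1, ITGA4, ITGA8 and ITGA9 had no count in any library.

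Which members the lines differed in without depletion was asked first. Between the siControl groups 31 of 45 tested members were called, beside 33.6% of all 14823 genes, with 20 higher in SCaBER (beside 17.2%) and 11 lower (beside 16.4%). The count is a description, because 16 of the 45 passed the filter in a single line. LAMB3 and LAMA3, chains of the hemidesmosomal laminin, were higher in SCaBER. LAMB3 (ENSG00000196878) stood at 44.3 and 67.5 CPM in RT112 against 254 and 261 in SCaBER (log2 fold change 2.20, SE 0.18, adjusted p 1.33e-11). LAMA3 stood at 16.1 and 11.2 against 99.4 and 85.1 CPM (log2 fold change 2.76, SE 0.24, adjusted p 5.16e-11). For each of these chains both SCaBER libraries lay above both RT112 libraries, with no overlap. COL7A1, the chain of anchoring fibrils, was also higher in SCaBER (5.89 and 4.6 against 56.6 and 69.4 CPM, log2 3.59, SE 0.33, adjusted p 6.27e-11). The chains of the other major epithelial laminin split. LAMA5, its alpha chain, was lower in SCaBER (191 and 159 against 44.6 and 51.7 CPM, log2 −1.86, SE 0.17, adjusted p 2.06e-10), LAMC1 was higher (137 and 113 against 426 and 411 CPM, log2 1.75, SE 0.13, adjusted p 1.1e-12), and LAMB1 was not called (99.2 and 118 against 105 and 89.7 CPM, adjusted p 0.479).

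The network chains COL4A1 and COL4A2 showed the reverse. COL4A1 stood at 55 and 33.3 CPM in RT112 and held 3 and 2 counts in SCaBER under siControl (called, adjusted p 2.17e-09). COL4A2 stood at 92.2 and 70 CPM in RT112 and held 2 and 0 counts in SCaBER, a ratio of counts per depth of 419 with a 95% counting interval of 116 to 3463 (adjusted p 1.4e-13). Over all 12 SCaBER libraries the genes summed to 36 and 14 counts, and 1 library, siZBED2-1 replicate 2, held 19 of the 36. These genes lie head to head on chromosome 13 (COL4A1 at chr13:110148963-110307157 on the minus strand, COL4A2 at chr13:110307284-110513209 on the plus strand; GRCh38.p14) and share the promoter region between their starts. The 126 bases between them are printed in capitals with 10 transcribed bases on either side in lower case, plus strand, chr13:110307148-110307293, from RefSeq, because both chains start from it, in opposite directions.
COL4A1 and COL4A2: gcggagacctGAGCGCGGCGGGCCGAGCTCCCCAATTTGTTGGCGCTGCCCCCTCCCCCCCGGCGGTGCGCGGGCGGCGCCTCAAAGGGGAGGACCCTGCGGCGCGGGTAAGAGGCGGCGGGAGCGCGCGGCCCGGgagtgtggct
The other type IV genes also lie in such pairs. COL4A4, whose start lies beside that of COL4A3 on chromosome 2, stood at 12.2 and 16.9 CPM in RT112 and had no count in the SCaBER siControl libraries, at least 25.3-fold lower against a floor of 3 counts per library (adjusted p 1.92e-06). COL4A5 and COL4A6 lie 379 bases apart on the X chromosome. COL4A5 stood at 28.6 and 27.9 CPM in RT112 against 21.9 and 20.1 in SCaBER (not called, adjusted p 0.27), and COL4A6 at 3.71 and 1.1 against 11.8 and 14.2 (called, adjusted p 0.00904, and 0.13 without RT112 siControl replicate 2).

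Among the integrins, 6 of 7 tested alpha chains were called higher in SCaBER, beside 17.2% of all genes. This count too is a description, because ITGA1, called higher, passed the filter in SCaBER only, and ITGA10, not called, in RT112 only. ITGA5 differed most of those present in both lines (5.67 and 6.8 against 68.7 and 78.9 CPM, log2 fold change 3.55, SE 0.31, adjusted p 1.58e-11), followed by ITGA2 (80 and 69.3 against 283 and 234 CPM, log2 fold change 1.79, SE 0.14, adjusted p 6.74e-12). ITGA3, ITGA6 and ITGAV were higher by 0.95, 0.54 and 1.43 on the log2 scale, and ITGA1 had no count in the RT112 siControl libraries. The beta chains went both ways. ITGB1, the common partner, was not called (218 and 219 against 246 and 239.5 CPM), ITGB8 was higher in SCaBER, and ITGB4, ITGB5 and ITGB6 were lower there. For ITGB6, a beta chain of epithelia that binds latent TGF-beta with ITGAV, the values were 64.3 and 85.7 CPM in RT112 and 23 and 22.4 in SCaBER (log2 −1.73, SE 0.20, adjusted p 1.98e-08). ITGB4 stood at 201 and 205 against 121 and 118 CPM (log2 −0.77, SE 0.17, adjusted p 0.00069), so the beta chain of the hemidesmosomal pair was lower in the line in which its alpha partner ITGA6 was higher. ITGB2, the beta chain of leukocyte integrins, had no count in any RT112 library and 15.3 and 16.7 CPM in SCaBER under siControl, at least 26.6-fold higher (adjusted p 5.7e-08). In SCaBER the summed level of 5 leukocyte markers was 0.37 to 5.53 CPM, with CD3E, CD79A and LYZ at 0 and PTPRC at 0.398 at most. The remaining marker, CD14, ran from 0.199 to 5.53 CPM there. It summed to 154 counts in SCaBER and 2 in RT112. The call of ITGA6 was lost without RT112 siControl replicate 2 (adjusted p 0.0934).

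Of the remaining collagens, COL27A1 and COL9A3, both known from cartilage, were higher in SCaBER, as was COL16A1, a collagen that sits on fibrils, which had no count in the RT112 siControl libraries and 14.4 and 16.3 CPM in SCaBER (at least 25.5-fold). COL27A1 stood at 8.94 and 5.88 against 64.8 and 51.9 CPM (log2 fold change 2.99, SE 0.37, adjusted p 4.79e-08). COL12A1, COL6A1, COL6A2 and COL18A1 were lower in SCaBER. COL12A1 stood at 58.2 and 34.6 against 10.5 and 9.05 CPM (log2 fold change −2.24, SE 0.34, adjusted p 2.66e-06). COL6A2 had no count in any SCaBER library. The fibrillar chains COL1A1 and COL5A1 were not called between the lines, with COL1A1 at 5.02 and 4.41 CPM in RT112 against 6.35 and 5.7 in SCaBER. Some calls were lost on leaving out a library, those of COL18A1 (adjusted p 0.0632 and 0.0504, log2 fold change −1.60 and −1.67, without SCaBER siControl replicate 1 and 2), COL13A1 (adjusted p 0.0827, 0.0998 and 0.0764 without RT112 siControl replicate 1, replicate 2 and SCaBER siControl replicate 2) and LAMA4 (0.0825 without RT112 siControl replicate 1).

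**Figure D1:**
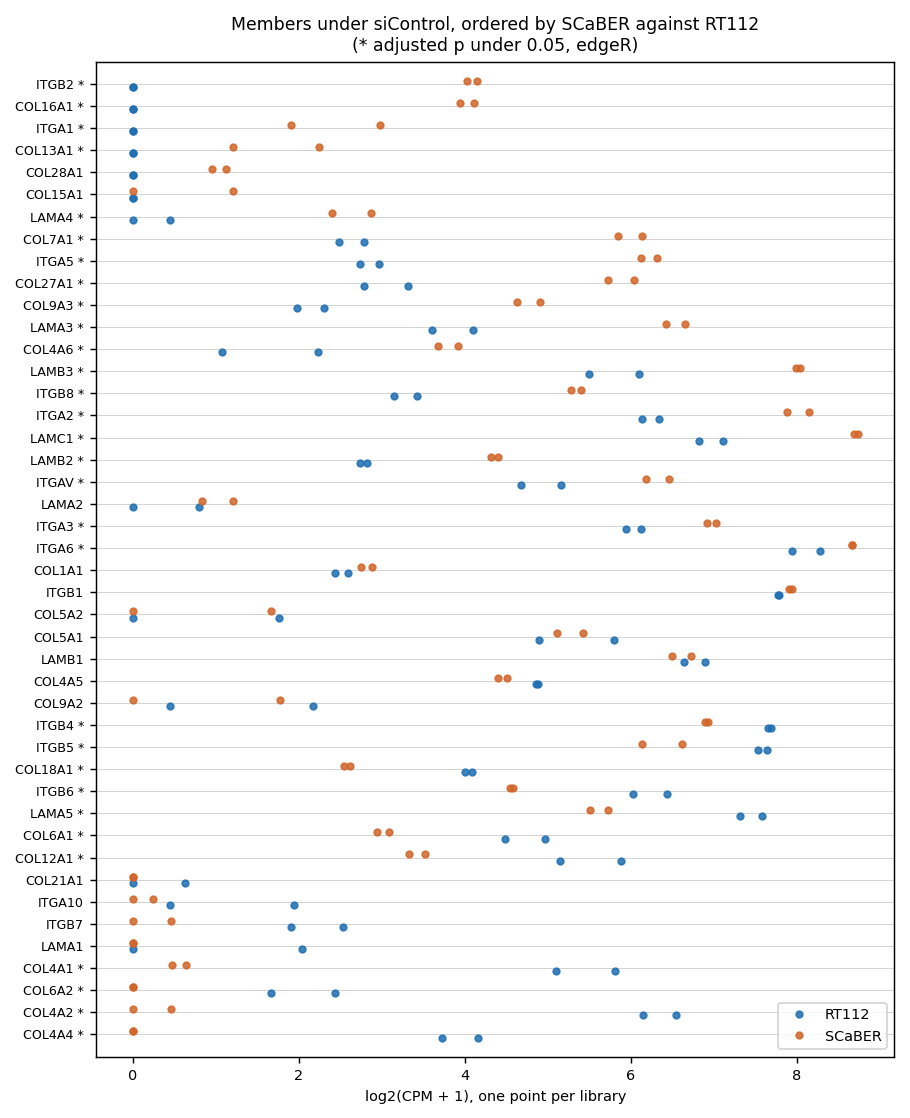
Level of 44 tested members under siControl, as log2(CPM + 1) on the horizontal axis, with a point per library (blue RT112, orange SCaBER) and genes ordered by the difference between the lines. ITGB2 and COL16A1 stand at the top, and COL4A1, COL4A2 and COL4A4 at the bottom, where the SCaBER points lie at or close to 0.

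Under siFOXA1 in RT112, COL1A1, ITGAV with its partner ITGB6, and ITGB1 with its partner ITGA3 rose, while both chains of the hemidesmosomal integrin fell. Against siControl 12 of 37 tested members were called, beside 23.3% of all 13264 genes, 9 higher (beside 11.3%) and 3 lower (beside 11.9%). The median log2 fold change of the 37 members was 0.34, beside −0.01 over all genes tested. COL1A1 (ENSG00000108821, chr17:50184101-50201631) moved from 5.02 and 4.41 to 40 and 42.6 CPM (log2 fold change 3.11, SE 0.36, adjusted p 5.86e-07). COL6A1 moved from 30.3 and 21.3 to 83.4 and 40.4 CPM (log2 fold change 1.25, SE 0.44, adjusted p 0.0399), with replicate 1 above replicate 2 in each of the 6 RT112 groups. With DESeq2 COL6A1 was not called (adjusted p 0.207). The stromal markers of the list of 6 fibroblast genes were near 0 in RT112 (DCN at most 0.441 CPM, THY1 and PDGFRA at 0), except LUM, which fell in the same comparison (log2 −0.98, SE 0.19, adjusted p 0.000492). COL4A4 fell from 12.2 and 16.9 to 2.02 and 6.96 CPM (log2 −1.72, SE 0.49, adjusted p 0.0113), whereas COL4A1 and COL4A2 were not called. For COL4A1 the adjusted p was 0.127, and 0.0462 with the replicate block.

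Of the integrin pairs named above, some had both chains called in the same direction in RT112 under siFOXA1. In the others not both chains were called, and pairs not named above were not compared. ITGAV (ENSG00000138448) rose from 34.7 and 24.6 to 74.5 and 79.6 CPM (log2 fold change 1.37, SE 0.22, adjusted p 6.1e-05), and its partner ITGB6 rose from 64.3 and 85.7 to 137 and 134 (log2 fold change 0.84, SE 0.18, adjusted p 0.00137). ITGB1 rose from 218 and 219 to 363 and 378 CPM (log2 0.75, SE 0.13, adjusted p 0.000203), with its laminin-binding partner ITGA3 (68.5 and 60.7 to 107 and 104 CPM, log2 0.69, SE 0.19, adjusted p 0.00917). The hemidesmosomal chains fell together. ITGB4 (ENSG00000132470) moved from 201 and 205 to 139 and 104 CPM (log2 −0.75, SE 0.18, adjusted p 0.0038) and ITGA6 from 309 and 246 to 209 and 195 CPM (log2 −0.47, SE 0.15, adjusted p 0.0271). ITGB5 and ITGB8, other partners of ITGAV, and ITGA2 and ITGA5, other partners of ITGB1, were not called. For ITGA5 the value was 1.11 on the log2 scale (SE 0.54, adjusted p 0.151). For none of the 12 called genes did the siFOXA1 and siControl libraries overlap.

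LAMB3 and LAMA3 were not called in RT112, and their siFOXA1 and siControl libraries overlapped. LAMB3 stood at 44.3 and 67.5 CPM under siControl against 51.5 and 53.3 under siFOXA1 (log2 fold change −0.11, SE 0.25, adjusted p 0.809), and LAMA3 at 16.1 and 11.2 against 13.9 and 10 (log2 fold change −0.20, SE 0.44, adjusted p 0.796). LAMB2, a beta chain that can replace LAMB1, rose from 5.67 and 6.07 to 22.8 and 25 CPM (log2 2.01, SE 0.46, adjusted p 0.00224). LAMB1 was called at the edge of the threshold (log2 0.45, SE 0.16, adjusted p 0.04999). LAMC1 and LAMA5 were not called.

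Of the 12 RT112 calls, significance was lost without siControl replicate 1 for ITGA6 (adjusted p 0.34), without siControl replicate 2 for COL4A4 (0.0928), COL6A1 (0.176) and ITGA3 (0.118), without siFOXA1 replicate 1 for COL4A4 (0.162) and COL6A1 (0.362) and without siFOXA1 replicate 2 for ITGA6 (0.165) and ITGB4 (0.0852). LAMB1 lost significance on leaving out any of 9 libraries (siControl replicates 1 and 2, siFOXA1 replicates 1 and 2, siFOXA1+siZBED2-1 replicates 1 and 2, siFOXA1+siZBED2-2 replicates 1 and 2, siZBED2-2 replicate 2), with an adjusted p of 0.054 to 0.34. With any single library left out, 8 to 12 members were called. By limma on log2(TPM + 1), the calls of ITGB6 (adjusted p 0.218), ITGB1 (0.114), ITGA3 (0.328) and LAMB1 (0.732) were among those lost.

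Under siFOXA1 in SCaBER, LAMB3 of the hemidesmosomal laminin rose, with COL7A1, ITGB6, ITGA5 and ITGA3. Here 10 of 37 members were called, beside 17.8% of all 13129 genes, and all 10 were higher, beside 8.71% of genes called higher. The median log2 fold change of the 37 was 0.36, beside −0.02 over all genes. LAMB3 (ENSG00000196878, chr1:209614870-209652425) moved from 254 and 261 to 759 and 876 CPM (log2 fold change 1.65, SE 0.11, adjusted p 9.93e-13). Both siFOXA1 libraries lay far above both siControl libraries. Its partner LAMA3 stood at 99.4 and 85.1 CPM under siControl against 101 and 144 under siFOXA1 and was not called (log2 fold change 0.39, SE 0.17, adjusted p 0.112). LAMB2 rose as in RT112 (20.2 and 18.9 to 37.2 and 43.2 CPM, log2 1.02, SE 0.27, adjusted p 0.00694). The members together took 0.356 and 0.336% of counts under siControl and 0.533 and 0.551% under siFOXA1. This share was above siControl in the other SCaBER groups as well. It was 0.558 and 0.530% with siZBED2-1, 0.432 and 0.434% with siZBED2-2 and 0.475 to 0.501% in the double knock-downs.

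Among SCaBER integrins, ITGB6 showed the largest change of those called, from 23 and 22.4 to 79.3 and 73.2 CPM (log2 fold change 1.73, SE 0.22, adjusted p 2.98e-07). ITGA5, the fibronectin receptor chain, rose from 68.7 and 78.9 to 223 and 172 CPM (log2 fold change 1.40, SE 0.17, adjusted p 1.39e-07) and ITGA3 from 119.9 and 129.8 to 245 and 229.8 CPM (log2 0.91, SE 0.14, adjusted p 1.2e-05). Fibronectin itself (FN1), the ligand of the ITGA5 pair, was also higher (log2 1.45, SE 0.23, adjusted p 2.23e-05). ITGB2 rose from 15.3 and 16.7 to 32.1 and 39.1 CPM (log2 1.13, SE 0.34, adjusted p 0.0172) and ITGA2, an alpha chain of a collagen receptor, from 283 and 234 to 313 and 367 (log2 0.38, SE 0.13, adjusted p 0.0341). Neither ITGAV, the partner of ITGB6, nor ITGB1, the partner of ITGA5, ITGA3 and ITGA2, was called. The hemidesmosomal chains were not called, with ITGA6 at 405 and 404 CPM under siControl against 354 and 328 under siFOXA1 (log2 −0.27, SE 0.12, adjusted p 0.114) and ITGB4 at 121 and 118 against 158 and 123 (log2 0.22, SE 0.15, adjusted p 0.345). COL7A1 rose from 56.6 and 69.4 to 120.2 and 111 CPM (log2 0.85, SE 0.18, adjusted p 0.000835) and COL27A1 from 64.8 and 51.9 to 132 and 109 CPM (log2 1.02, SE 0.17, adjusted p 3.01e-05). COL1A1 stood at 6.35 and 5.7 CPM under siControl against 14.1 and 13.6 under siFOXA1, with no overlap, and was not called (log2 1.18, SE 0.48, adjusted p 0.0905). ITGB8 was not called either (adjusted p 0.0548, and 0.0407 with the replicate block), and LAMA2 was called by DESeq2 alone (adjusted p 0.0442, beside 0.135 in edgeR). Of the SCaBER calls, significance was lost without siControl replicate 1 for ITGB2 (adjusted p 0.0899), without siControl replicate 2 for ITGA2 (0.369), ITGB2 (0.0532) and LAMB2 (0.0599) and without siFOXA1 replicate 2 for ITGA2 (0.326), ITGB2 (0.106) and LAMB2 (0.0665). Between 7 and 12 members were called with a library left out.

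**Figure D2:**
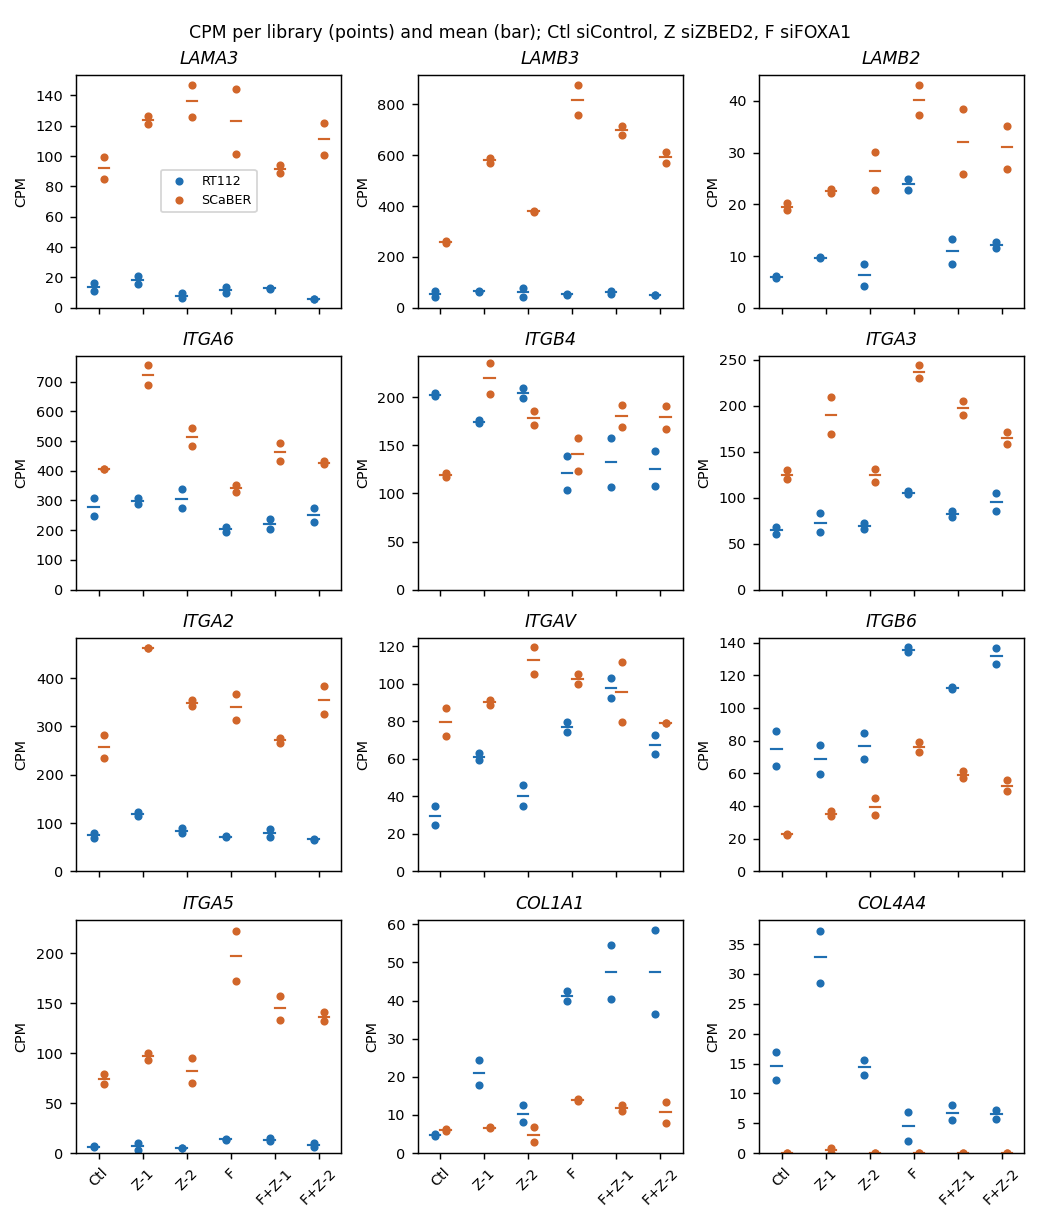
CPM of 12 members in every library, with a point per library, a bar for the mean of the 2 libraries and a panel per gene, each on its own linear axis from 0 (blue RT112, orange SCaBER; Ctl siControl, Z-1 and Z-2 the ZBED2 siRNAs, F siFOXA1). In SCaBER LAMB3 lay above siControl in every other group, and in RT112 COL1A1 was highest in the groups with siFOXA1.

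The siFOXA1 changes of the lines were compared in a single fit of 24 libraries. Of the 29 members tested in both lines, 11 were called in RT112 and 9 in SCaBER. Called in both were 4, all higher, among them LAMB2, ITGA3 and ITGB6. These 4 were 36.4% of the RT112 calls and 44.4% of the SCaBER calls, beside 41.4% and 54.1% for all genes tested in both lines and called in the same direction. The change differed between the lines for 4 of 45 members, beside 2.58% of all genes, in 3 toward higher values in SCaBER (beside 1.41%) and in 1 toward lower (beside 1.17%). LAMB3 rose in SCaBER and not in RT112, a difference in change of 1.77 on the log2 scale (SE 0.25, adjusted p 5.63e-05). COL27A1 rose in SCaBER and stood in RT112 at 8.94 and 5.88 CPM under siControl against 2.62 and 2.39 under siFOXA1, where it was not called, a difference of 2.58 on the log2 scale (SE 0.60, adjusted p 0.00937). ITGB4 fell in RT112 and stood above its siControl libraries in SCaBER without a call, a difference of 0.98 on the log2 scale (SE 0.25, adjusted p 0.0222). ITGAV rose in RT112 and was not called in SCaBER, a difference of −1.01 on the log2 scale (SE 0.28, adjusted p 0.0416). Those of LAMB3 and COL27A1 stayed called without any single library, though limma on log2(TPM + 1) lost COL27A1 (adjusted p 0.0893). For the others, ITGAV lost significance on leaving out any of 5 libraries (RT112 siControl replicate 2, RT112 siFOXA1 replicate 2, SCaBER siControl replicate 1, SCaBER siFOXA1 replicates 1 and 2), with an adjusted p of 0.0917 to 0.28. ITGB4 lost significance on leaving out any of 5 libraries (RT112 siControl replicate 2, RT112 siFOXA1 replicate 2, SCaBER siControl replicates 1 and 2, SCaBER siFOXA1 replicate 1), with an adjusted p of 0.0514 to 0.162. The difference for COL1A1 missed the threshold (adjusted p 0.0566) and passed with the replicate block (0.0335) and with DESeq2 (0.0115), and ITGB6 missed it (0.0707) and passed with DESeq2 (0.0144). Between 2 and 5 members were called with a library left out, with 2 without siControl replicate 2 or siFOXA1 replicate 2 of RT112 and without siControl replicate 1 or siFOXA1 replicate 1 of SCaBER.

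**Figure D3:**
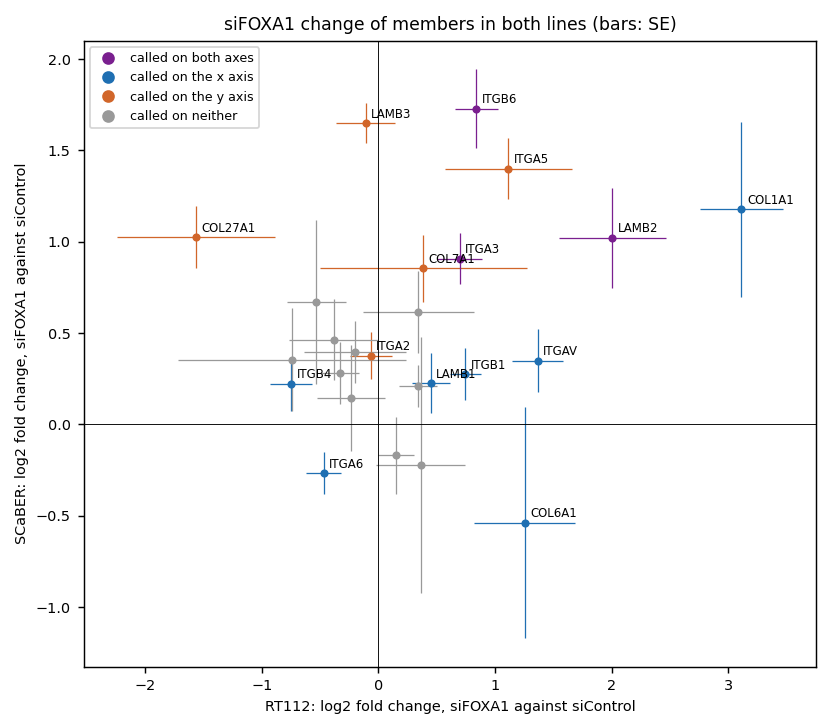
Log2 fold change under siFOXA1 in RT112 (horizontal) and SCaBER (vertical) for 25 members tested in both lines with a standard error under 1 in each, with bars for the standard error. ITGB6, LAMB2 and ITGA3 lie to the upper right, called in both lines, LAMB3 lies high at a RT112 change of −0.11, and COL1A1 lies farthest to the right.

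The same siRNA was also read in libraries that carried a ZBED2 siRNA, by comparing the 4 double knock-down libraries of a line with the 4 libraries of ZBED2 siRNA alone. This comparison shares no library with that of siFOXA1 against siControl. In RT112 14 of 37 members were called, beside 20.1% of all genes, 9 higher (beside 9.88%) and 5 lower (beside 10.2%). Of the 12 members called under siFOXA1 alone, 11 had the same sign (91.7%, beside 95.3% of all genes called under siFOXA1 alone) and 9 were called in the same direction (75%, beside 57.2%). These 9 were 64.3% of the members called with ZBED2 siRNA present, beside 66.3% for all genes. COL1A1 stood at 24.3 and 17.9 CPM with siZBED2-1, 12.5 and 8.04 with siZBED2-2, 54.6 and 40.3 with siFOXA1+siZBED2-1 and 58.4 and 36.6 with siFOXA1+siZBED2-2 (log2 fold change 1.68, SE 0.22, adjusted p 5.9e-06). ITGB6 (log2 fold change 0.74, SE 0.13, adjusted p 0.000162), ITGAV (log2 0.71, SE 0.15, adjusted p 0.0015), ITGB4 (log2 −0.56, SE 0.13, adjusted p 0.00295) and COL4A4 (log2 −1.71, SE 0.33, adjusted p 0.000513) moved as before. So did ITGA6, COL6A1, LAMB1 and ITGB1, whose calls were lost on leaving out some libraries. Called in this comparison and not under siFOXA1 alone were COL18A1 (log2 1.14, SE 0.27, adjusted p 0.00415), ITGB8 (log2 1.25, SE 0.33, adjusted p 0.00773), COL9A3 (adjusted p 0.0188) and ITGA2 (log2 −0.48, SE 0.13, adjusted p 0.00851), and ITGB5 passed with the replicate block (adjusted p 0.0417, beside 0.0683). COL9A3 stood at 0.198 and 1.11 CPM with siZBED2-1, 2.7 and 1.75 with siZBED2-2, 3.61 and 6.89 with siFOXA1+siZBED2-1 and 7.93 and 8.08 with siFOXA1+siZBED2-2. Of these calls, significance was lost without siFOXA1+siZBED2-1 replicate 1 for COL6A1 (adjusted p 0.104) and ITGA6 (0.0697), without siFOXA1+siZBED2-1 replicate 2 for COL9A3 (0.0711), ITGA2 (0.0601) and LAMB1 (0.0635), without siFOXA1+siZBED2-2 replicate 1 for COL6A1 (0.261) and ITGA6 (0.0908) and without siFOXA1+siZBED2-2 replicate 2 for ITGB8 (0.0805). It was further lost without siZBED2-1 replicate 1 for COL9A3 (0.0847), ITGA6 (0.0617) and LAMB1 (0.145) and without siZBED2-2 replicate 2 for COL6A1 (0.053), COL9A3 (0.054) and ITGA6 (0.107). ITGB1 lost significance on leaving out any of 10 libraries (siControl replicates 1 and 2, siFOXA1 replicates 1 and 2, siFOXA1+siZBED2-1 replicates 1 and 2, siFOXA1+siZBED2-2 replicate 2, siZBED2-1 replicates 1 and 2, siZBED2-2 replicate 2), with an adjusted p of 0.0564 to 0.245. Between 9 and 14 members were called with a library left out, and 9 was reached without siFOXA1+siZBED2-1 replicate 2. By limma on log2(TPM + 1), the calls of ITGB6 (adjusted p 0.129) and ITGAV (0.103) were among those lost.

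In SCaBER 8 of 37 members were called with ZBED2 siRNA present, beside 10.1% of all genes, 5 higher (beside 5.24%) and 3 lower (beside 4.9%). Of the 10 called under siFOXA1 alone, 9 had the same sign (90%, beside 93.9% of all genes called under siFOXA1 alone) and 3 were called in the same direction (30%, beside 39%). These 3 were LAMB3 (log2 fold change 0.46, SE 0.08, adjusted p 9.51e-05), ITGA5 (log2 fold change 0.66, SE 0.12, adjusted p 0.000193) and ITGB6 (log2 0.58, SE 0.15, adjusted p 0.00903), or 37.5% of the members called with ZBED2 siRNA present, beside 68.7% for all genes. LAMB3 stood at 589.8 and 569 CPM with siZBED2-1 and 715 and 681 with siFOXA1 added, and at 382 and 377 with siZBED2-2 against 569.9 and 614 with siFOXA1 added. ITGA6 (log2 −0.45, SE 0.08, adjusted p 0.000189), ITGA2 (log2 −0.37, SE 0.09, adjusted p 0.00485) and LAMA3 (log2 −0.36, SE 0.12, adjusted p 0.0482) were lower, ITGA2 against its direction under siFOXA1 alone. COL16A1 (log2 0.76, SE 0.23, adjusted p 0.0294) and LAMA4 (log2 1.46, SE 0.48, adjusted p 0.0441), an alpha chain of vessel and muscle basement membranes, were higher. COL1A1 missed the threshold (adjusted p 0.057) and passed with the replicate block (0.0491) and DESeq2 (0.0467). Of these calls, significance was lost without siZBED2-1 replicate 2 for ITGB6 (adjusted p 0.0515) and without siZBED2-2 replicate 1 for ITGB6 (0.0718). COL16A1 lost significance on leaving out any of 7 libraries (siFOXA1+siZBED2-1 replicates 1 and 2, siFOXA1+siZBED2-2 replicate 1, siZBED2-1 replicates 1 and 2, siZBED2-2 replicates 1 and 2), with an adjusted p of 0.0593 to 0.432. LAMA3 lost significance on leaving out any of 6 libraries (siFOXA1+siZBED2-1 replicates 1 and 2, siFOXA1+siZBED2-2 replicate 1, siZBED2-1 replicates 1 and 2, siZBED2-2 replicate 1), with an adjusted p of 0.0819 to 0.187. LAMA4 lost significance on leaving out any of 5 libraries (siFOXA1+siZBED2-1 replicates 1 and 2, siFOXA1+siZBED2-2 replicate 2, siZBED2-1 replicate 2, siZBED2-2 replicate 1), with an adjusted p of 0.0716 to 0.241. Between 4 and 8 members were called with a library left out, with 4 without siZBED2-1 replicate 2 and 5 without siFOXA1+siZBED2-1 replicate 1 or 2 or siZBED2-2 replicate 1.

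**Figure D4:**
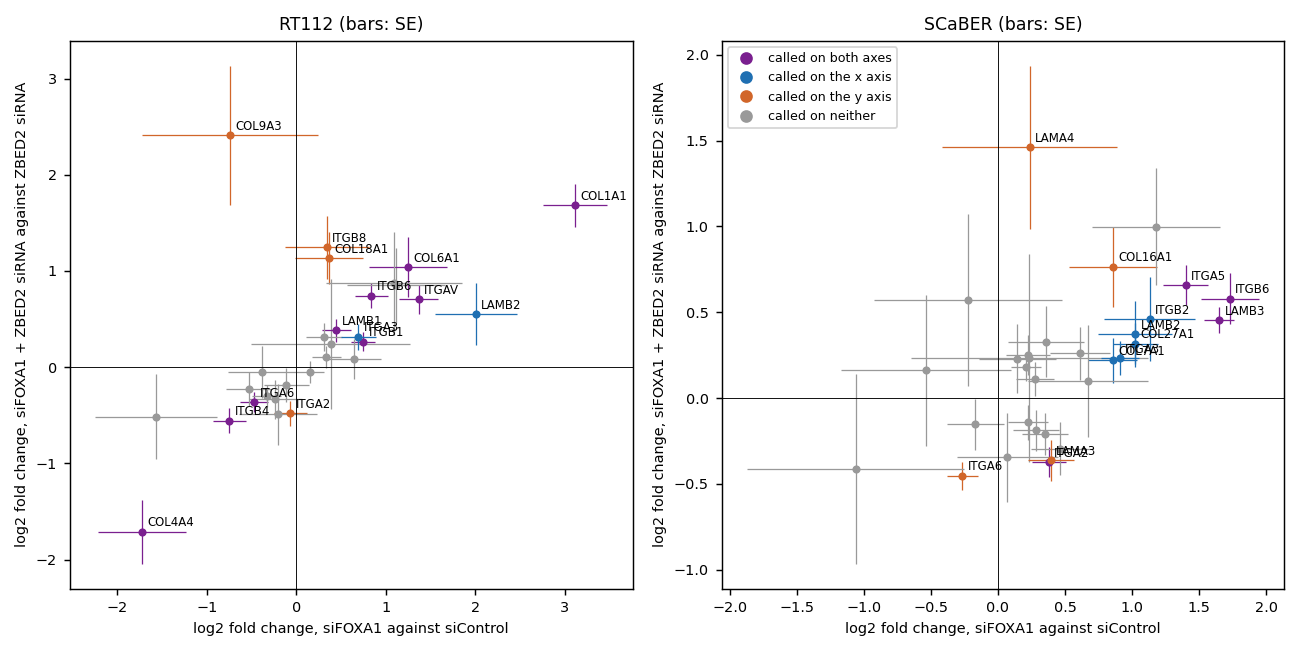
Log2 fold change of the FOXA1 siRNA against siControl (horizontal) and on top of a ZBED2 siRNA (vertical), with bars for the standard error, for 29 members in RT112 and 31 in SCaBER with a standard error under 1. COL1A1 and COL4A4 lie at opposite corners in RT112, and LAMB3 and ITGB6 lie to the upper right in SCaBER.

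The ZBED2 siRNAs were read one by one, because they differed in how far ZBED2 fell. All their comparisons with siControl share the siControl libraries with those of siFOXA1. With siZBED2-1, 5 of 37 members were called in RT112, beside 8.8% of all genes, and 7 of 37 in SCaBER, beside 4.65%. All 12 were higher, beside 4.35% of genes called higher in RT112 and 2.19% in SCaBER. ITGA2, the alpha chain of a collagen receptor, rose in both lines, to 115 and 124 CPM in RT112 (log2 fold change 0.68, SE 0.18, adjusted p 0.0169) and to 463 and 463 CPM in SCaBER (log2 fold change 0.82, SE 0.13, adjusted p 4.7e-05). Also called in RT112 were COL1A1 (log2 2.16, SE 0.36, adjusted p 0.000224), ITGAV (log2 1.05, SE 0.22, adjusted p 0.00292) and ITGB1 (log2 0.49, SE 0.13, adjusted p 0.0221). Also called in SCaBER were chains of the hemidesmosome and its laminin: LAMB3 (log2 1.15, SE 0.11, adjusted p 1.27e-08), ITGA6 (log2 0.81, SE 0.11, adjusted p 1.18e-05) and ITGB4 (log2 0.86, SE 0.15, adjusted p 0.000217), together with ITGA3 (log2 0.58, SE 0.14, adjusted p 0.0108) and COL27A1 (log2 0.75, SE 0.17, adjusted p 0.00534). In SCaBER ITGA6 stood at 405 and 404 CPM under siControl and 757 and 687 with siZBED2-1, and ITGB4 at 121 and 118 against 203 and 236, both without overlap. COL17A1, their transmembrane partner, was called higher too (log2 0.68, SE 0.10, adjusted p 1.99e-05). The summed level of the 6 basal and squamous markers, a list without members, was 2196 and 2151 CPM under siControl and 3590.2 and 3500.3 with siZBED2-1, and its part in these calls was not tested. LAMA3 had 127 and 121 CPM and was not called (log2 0.40, SE 0.17, adjusted p 0.21). In RT112, significance was lost without siControl replicate 1 for ITGB1 (adjusted p 0.123), without siControl replicate 2 for ITGA2 (0.254), ITGAV (0.111) and ITGB1 (0.169), without siZBED2-1 replicate 1 for ITGA2 (0.0629) and ITGB1 (0.147) and without siZBED2-1 replicate 2 for ITGA2 (0.158) and ITGB1 (0.0921). In SCaBER, significance was lost without siControl replicate 1 for ITGA3 (adjusted p 0.104), without siControl replicate 2 for COL27A1 (0.135), without siZBED2-1 replicate 1 for ITGA3 (0.236) and without siZBED2-1 replicate 2 for COL27A1 (0.132). The number of calls with a library left out was 2 to 5 in RT112, with 2 without siControl replicate 2 and 3 without either siZBED2-1 library, and 6 to 7 in SCaBER.

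With siZBED2-2, none of the 37 members was called in RT112, beside 0.166% of all genes by edgeR, and 0 were called by DESeq2. By edgeR 2 of the 37 had an unadjusted p under 0.05, beside 764 of all 13264 genes. COL1A1 was among those with an unadjusted p under 0.05 (12.5 and 8.04 CPM, log2 fold change 1.11, SE 0.37, adjusted p 0.49). In SCaBER 2 of 37 were called, beside 0.625% of all genes and 0.427% called higher, among them LAMB3 (382 and 377 CPM, log2 fold change 0.56, SE 0.11, adjusted p 0.00615). LAMA3, its partner, stood at 147 and 126 CPM, above both siControl libraries, and was not called (log2 0.56, SE 0.17, adjusted p 0.184). ITGB4 missed the threshold (log2 0.59, SE 0.15, adjusted p 0.053) and passed with the replicate block (0.013), and DESeq2 called it with ITGA2 (0.0395) and ITGB6 (0.026). In SCaBER, significance was lost without siControl replicate 1 for LAMB3 (adjusted p 0.0738) and without siZBED2-2 replicate 1 for LAMB3 (0.0592). The number of calls with a library left out was 1 to 3, with 1 without siControl replicate 1, siControl replicate 2 or siZBED2-2 replicate 1.

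The ZBED2 siRNAs were also read on top of siFOXA1, by comparing the double knock-downs with siFOXA1 alone. In RT112 0 of 37 were called by edgeR, beside 1.96% of all genes, and 0 by DESeq2. By edgeR 6 of the 37 had an unadjusted p under 0.05, beside 1883 of all 13264 genes. LAMB2 had the smallest p (log2 fold change −1.05, SE 0.38, adjusted p 0.172). In SCaBER 3 of 37 were called, beside 3.84% of all genes, and 5 with the replicate block. Of the 3, 1 was higher (beside 2.06%) and 2 lower (beside 1.77%). ITGA6 was higher in the double knock-downs, at 433 and 493 CPM with siZBED2-1 added, 433 and 422 with siZBED2-2 added and 354 and 328 under siFOXA1 alone (log2 fold change 0.39, SE 0.10, adjusted p 0.0196). LAMB3, whose values in these groups are given above, was lower (log2 −0.34, SE 0.09, adjusted p 0.0312), as was ITGA5, at 158 and 133 CPM with siZBED2-1 added, 141 and 132 with siZBED2-2 added and 223 and 172 under siFOXA1 alone (log2 −0.48, SE 0.14, adjusted p 0.0464). ITGA3 missed the threshold (adjusted p 0.0629) and passed with the replicate block (0.027) and with DESeq2 (0.0204). LAMB3 was thus higher with either ZBED2 siRNA against siControl and lower with a ZBED2 siRNA on top of siFOXA1, in comparisons that share no library. Of these calls, significance was lost without siFOXA1 replicate 1 for ITGA5 (adjusted p 0.449), without siFOXA1 replicate 2 for ITGA6 (0.244) and LAMB3 (0.546), without siFOXA1+siZBED2-1 replicate 1 for LAMB3 (0.0546) and without siFOXA1+siZBED2-1 replicate 2 for ITGA5 (0.17), ITGA6 (0.111) and LAMB3 (0.115). It was further lost without siFOXA1+siZBED2-2 replicate 1 for ITGA5 (0.0591) and LAMB3 (0.113) and without siFOXA1+siZBED2-2 replicate 2 for ITGA5 (0.0997). The number of calls with a library left out was 0 to 4, with 0 without siFOXA1+siZBED2-1 replicate 2 and 1 without siFOXA1 replicate 2.

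**Figure D5:**
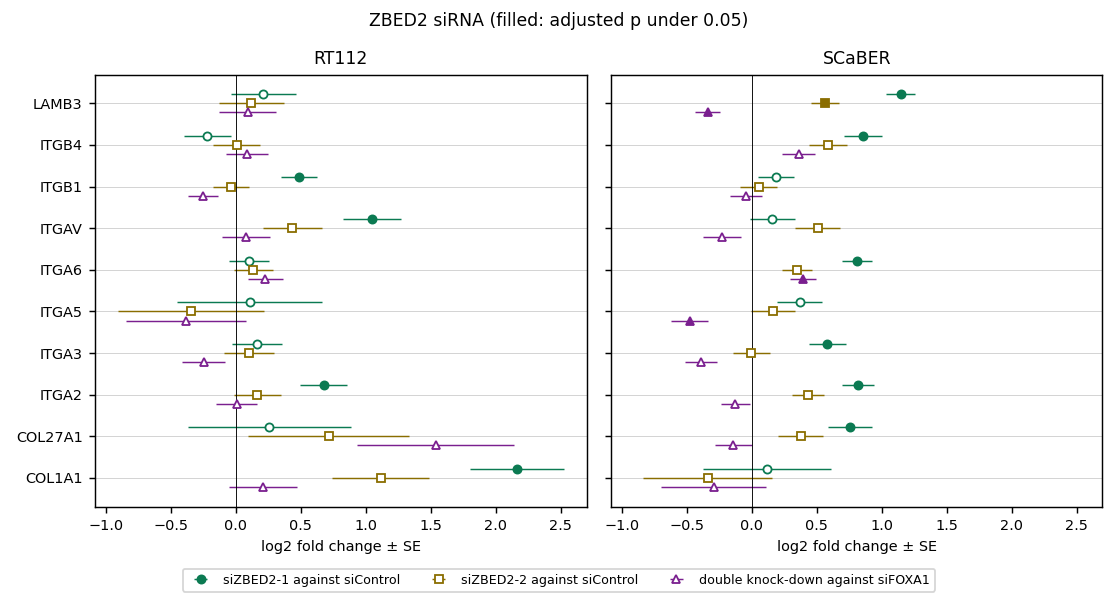
Log2 fold change with standard error for 10 members called in at least one comparison of ZBED2 siRNA, in RT112 (left) and SCaBER (right), for each ZBED2 siRNA against siControl (green circles, brown squares) and both double knock-downs against siFOXA1 (purple triangles), filled where the adjusted p was under 0.05. In SCaBER LAMB3 lies to the right for both siRNAs against siControl and lies to the left for the double knock-down.

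Genes that work with the members were read from lists of partners, beside all genes tested, of which 11.3% were called higher and 11.9% lower in RT112 and 8.71% higher and 9.12% lower in SCaBER. Of 8 tested hemidesmosome and basement membrane partners in RT112, 2 were higher and 1 lower under siFOXA1, and in SCaBER 0 were higher and 2 lower. DAG1, the core of the dystroglycan receptor for laminins, fell in both lines (log2 fold change −0.997, adjusted p 0.00174 in RT112, log2 fold change −1.06, SE 0.16, adjusted p 8.83e-06 in SCaBER), and HSPG2, the basement membrane proteoglycan perlecan, rose in RT112 (log2 fold change 0.98, SE 0.20, adjusted p 0.000727). COL17A1 was higher in SCaBER than in RT112 under siControl (log2 7.55, SE 0.21, adjusted p 3.81e-24). Its siFOXA1 change differed between the lines (log2 1.24, SE 0.35, adjusted p 0.0404) though it was called in neither. Of the other integrin ligands 3 of 7 were higher in RT112 and 3 of 8 in SCaBER, with 0 lower in either line, among them CYR61 in both lines (log2 2.53, SE 0.33, adjusted p 5.12e-06 in RT112, log2 1.12, SE 0.15, adjusted p 1.37e-06 in SCaBER). Of the receptors of other kinds, 2 of 4 were higher and 2 lower in RT112, and 1 of 5 was higher and 1 lower in SCaBER. In both lines the syndecan SDC4 rose (log2 0.93, SE 0.13, adjusted p 1.3e-05 in RT112, log2 1.57, SE 0.12, adjusted p 1.91e-11 in SCaBER) and the syndecan SDC1 fell (log2 −1.09, SE 0.16, adjusted p 2.6e-05 in RT112, log2 −1.01, SE 0.16, adjusted p 2.28e-05 in SCaBER).

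Of 18 tested integrin adaptors in RT112, 5 were higher and 2 lower under siFOXA1, and of 17 in SCaBER, 3 were higher and 1 lower. ILK, a scaffold on integrin tails (log2 fold change 1.42, SE 0.41, adjusted p 0.0122 in RT112, log2 fold change 0.85, SE 0.24, adjusted p 0.0103 in SCaBER), and ZYX, a focal adhesion protein (log2 1.21, SE 0.18, adjusted p 2.83e-05 in RT112, log2 0.44, SE 0.13, adjusted p 0.018 in SCaBER), rose in both lines, and TNS4 fell in both (log2 −1.54, SE 0.25, adjusted p 6.55e-05 in RT112, log2 −0.66, SE 0.22, adjusted p 0.0348 in SCaBER). FERMT1, the kindlin of epithelia that activates integrins, fell in RT112 (log2 −1.75, SE 0.17, adjusted p 4.62e-08), and its change differed between the lines (log2 1.63, SE 0.20, adjusted p 4.22e-06). VCL, the focal adhesion protein vinculin, rose there (log2 0.76, SE 0.15, adjusted p 0.000618), and LIMS1, which binds ILK, rose in SCaBER (log2 1.05, SE 0.16, adjusted p 5.21e-06). Enzymes and chaperones that process collagen went both ways, with 3 of 14 higher and 3 lower in RT112 and 2 of 17 higher and 4 lower in SCaBER. In RT112 BMP1, which trims procollagen, rose (log2 1.70, SE 0.32, adjusted p 0.000357), as did P4HA2, a subunit of prolyl hydroxylase (log2 0.63, SE 0.18, adjusted p 0.0105). The lysyl hydroxylase PLOD1 (log2 −1.34, SE 0.30, adjusted p 0.00162) and the cross-linking oxidase LOXL1 (log2 −1.82, SE 0.35, adjusted p 0.000484) fell. In SCaBER P4HA1, another subunit of prolyl hydroxylase, rose (log2 0.52, SE 0.16, adjusted p 0.019), and the collagen chaperone SERPINH1 fell (log2 −0.40, SE 0.12, adjusted p 0.0194).

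Upstream sequence was read for the members that RefSeq lists in a table of promoter windows, from 250 bases before a start to 50 after it (GRCh38.p14). All 75 members matched a RefSeq gene, and 54 of them had a window. The AP-1 motif TGANTCA, searched on both strands, stood in windows of 4 of the 54 members (7.41%), beside 2558 of 27305 genes (9.37%), and the forkhead motif TGTTTAC in 0 of 54, beside 1145 of all genes (4.19%). A match is a description of letters and not of binding. The members with an AP-1 match were LAMA3, LAMB3, ITGA5 and COL10A1, and the last had no count in any library. The first 3 are printed from 150 bases before the start to 10 after it, with the motif in capitals, since LAMB3 and ITGA5 were raised by siFOXA1 in SCaBER in both backgrounds and LAMA3 is the partner chain of LAMB3. LAMA3 is shown on the plus strand (chr18:23872870-23873029) at an annotated start that lies inside the gene (chr18:23689453-23955066). LAMB3 is shown on the minus strand (chr1:209651365-209651524) at one of its 3 annotated starts, also inside the gene (chr1:209614870-209652425). ITGA5 is shown on the minus strand (chr12:54419257-54419416). Each window was taken because it held a match, and no other window of these genes did. Which start the cells used is not resolved by these reads.
LAMA3: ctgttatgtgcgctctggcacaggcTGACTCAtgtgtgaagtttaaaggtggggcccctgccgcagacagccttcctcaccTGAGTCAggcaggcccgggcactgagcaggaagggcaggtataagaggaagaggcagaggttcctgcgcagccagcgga
LAMB3: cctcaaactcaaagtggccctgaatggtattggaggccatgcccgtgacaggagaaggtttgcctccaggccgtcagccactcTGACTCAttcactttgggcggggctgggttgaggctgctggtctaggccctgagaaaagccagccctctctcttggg
ITGA5: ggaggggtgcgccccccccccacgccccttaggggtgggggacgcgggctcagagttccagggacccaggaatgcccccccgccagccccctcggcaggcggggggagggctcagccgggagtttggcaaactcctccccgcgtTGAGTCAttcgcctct
The motifs begin 125 and 69 bases before that LAMA3 start, 67 before the LAMB3 start and 6 before the ITGA5 start. LAMA3, with 2 matches, was not called under siFOXA1 in either line. ITGB6, raised in both SCaBER backgrounds as LAMB3 and ITGA5 were, was not among the members with a match. A link between the motif and these changes was not tested.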

How the data were processed

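RNA from 24 samples of RT112 and SCaBER was sequenced as single-end QuantSeq FWD libraries. This kit primes on the poly(A) tail and reads close to it, and isoforms are not resolved. Per the deposited pipeline settings, the authors used raw-qc 2.1.0 and TrimGalore 0.6.2 at a quality limit of 20 and a length limit of 10. Per the labels and these settings, they used STAR 2.6.1a on hg38 for alignment and counts over GENCODE 29. The pipeline chose the strand setting itself. In the study's methods the build is hg19. The deposited tables hold raw counts per gene and TPM values made by the authors. Counts were used as deposited, and all 24 columns were matched to samples by name. The study's own tests used DESeq2.

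Counts and medians cover all members, of which 1 is not reported here by name. The members, the partner lists and the marker lists were chosen with earlier results of these data known. For each line, 12 libraries in 6 groups were fitted together with edgeR 4.0.16 (R 4.3.3, TMM factors, quasi-likelihood F-test, two-sided), after filterByExpr by group (minimum count 10, minimum total 15). The comparisons between lines used 1 fit of 24 libraries. Benjamini-Hochberg adjustment covered all genes tested, and calls were made at 0.05. CPM used TMM factors over 24 libraries. For each comparison up to 10 members called in each direction, by smallest p, were named with their change, and members at or just past the threshold under another setting were named after their values were seen. At most 4 genes per partner list and siFOXA1 comparison, by smallest p, were named, with their values in other comparisons where these bear on members. No log2 fold change was printed against a group in which every library held 3 counts or fewer, and ratios against such groups are lower bounds at 3 counts per library or carry an exact counting interval. The edgeR script was tested on simulated data. Alternatives were DESeq2 1.42.0, RLE factors, no filter on low counts, limma 3.58.1 on log2(TPM + 1), a replicate block and leaving out each library in turn.

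The labels give each library an experiment batch replicate number, which marks replicates 1 and 2 of all groups as batches, so the numbers pair the samples by label. Deviations from the group means correlated between same-numbered libraries by 0.0336 on average in RT112 and 0.0259 in SCaBER, with 0 of 15 pairs above 0.1 in either line. The block was fitted as an alternative. No separate cultures beyond these batches are named, so the p-values may measure technical spread. Every group holds both batches, so batch and group are not confounded.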

Additional observations from a re-analysis of the deposited data

Results flagged for a closer look

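For 4 members the change under siFOXA1 differed between the lines by a test of the difference itself (edgeR, adjusted over all genes). The difference, SCaBER minus RT112 on the log2 scale, was 1.77 for LAMB3, 2.58 for COL27A1, 0.977 for ITGB4 and −1.01 for ITGAV. The first 2 kept their call without any single library, and those of ITGB4 and ITGAV did not. By limma on log2(TPM + 1), LAMB3 kept its call and COL27A1 lost it (adjusted p 0.0893).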

How the results depend on the processing

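Of the 96 calls of members over all comparisons, 96 were kept with the replicate block, 95 with RLE factors, 94 with DESeq2, 94 without the filter on low counts and 60 by limma on log2(TPM + 1). No call reversed under these settings or on leaving out a library, and 57 were kept without every single library. The calls lost with DESeq2 were COL6A1 under siFOXA1 in RT112, without and with ZBED2 siRNA (adjusted p 0.207 and 0.143), and those lost without the filter were LAMB1 under siFOXA1 (0.067) and ITGB1 with ZBED2 siRNA (0.08) in RT112. ITGB1 in the latter comparison was also the call lost with RLE factors.

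By limma on the TPM scale, 5 members were called under siFOXA1 in RT112 and 7 with ZBED2 siRNA present, 2 with siZBED2-1 in RT112, 4 under siFOXA1 with ZBED2 siRNA in SCaBER, 0 with siZBED2-2 and 0 with double knock-down in SCaBER, and 1 for the line difference. On this scale the median of all genes shifted by −0.26 under siFOXA1 in RT112, −0.22 there with ZBED2 siRNA, −0.13 under siFOXA1 in SCaBER and 0.18 between the lines, which this scale does not remove. For the members of SCaBER, DESeq2 called 5 with siZBED2-2 and 5 with the double knock-down. Under the alternatives, counts of members are given without the share of all genes called under the same setting. A change particular to the members cannot be read from them. With the pairing of replicates in the model (replicate block), the SCaBER double knock-down gave 5 calls, and the block moved no other count of called members by more than 1.5 times. It added single calls in other comparisons, among them ITGB7 between the lines (0.0454), and ended none.

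Leaving out a library gave 8 to 12 calls under siFOXA1 in RT112, 7 to 12 in SCaBER, 9 to 14 and 4 to 8 with ZBED2 siRNA present, 2 to 5 and 6 to 7 with siZBED2-1, 0 to 0 and 1 to 3 with siZBED2-2, 0 to 0 and 0 to 4 with double knock-down (RT112 before SCaBER), 28 to 32 between the lines and 2 to 5 for the line difference. The cause of these movements was not tested. With 2 libraries a group, and 3 counts worth 0.474 to 0.678 CPM, a change that missed the threshold is not shown to be absent.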
